A study of Mus musculus with 6 samples.

Results

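Insulin and glucagon signalling in mouse liver was described through 10 genes, taken as the rows of the deposited table whose gene name is Insr, Irs1, Irs2, Foxo1, Foxo3, Pik3r1, Akt2, Gcgr, Creb3l3 or Crtc2. All 10 were found among 34745 genes, and all 10 were among the 12556 genes that passed the filter on low counts. RNA sequencing had been done on 12-week-old C57BL/6 mice 48 h after PHx, a partial hepatectomy, in which part of the liver is cut away. The labels give liver as the tissue and hepatocyte as the cell type. The 3 HKO libraries came from mice labelled Sox9HKO and the 3 WT libraries from Sox9f/f mice, which carry floxed alleles of the transcription factor gene Sox9. Both groups had undergone PHx, and no group without surgery was analysed here. The driver of the deletion and the number of mice behind a library could not be read from the labels. The p-values therefore measure only the spread between these libraries.

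Insulin and glucagon act on the hepatocyte in opposite directions. The insulin receptor phosphorylates adaptor proteins that recruit phosphoinositide kinase, whose lipid product activates AKT. AKT keeps FOXO transcription factors out of the nucleus, and these otherwise turn on genes of glucose production. Glucagon binds a receptor that raises cyclic AMP, which activates protein kinase A and, through CREB and its coactivators, genes of gluconeogenesis. In the regrowing liver these hormones reach the remaining tissue through the portal vein, the route from pancreas and gut.

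In HKO, the transcription factor genes Foxo1, Foxo3 and Creb3l3, the coactivator gene Crtc2, the glucagon receptor gene Gcgr and the regulatory kinase subunit gene Pik3r1 were higher than in WT. The receptor gene Insr, the adaptor genes Irs1 and Irs2 and the kinase gene Akt2 did not pass the test. Foxo1 had the largest difference, 2.04-fold (95% interval 1.62 to 2.58). Of the 10 genes 6 were called higher and 0 lower at an adjusted p below 0.05 (edgeR's quasi-likelihood test, Benjamini-Hochberg over all genes tested), where 12.1% of all tested genes were called higher and 11.2% lower. The 4 others also had an unadjusted p above 0.05, and DESeq2 called 5 higher and 0 lower. The median log2 fold change (HKO minus WT) was 0.42 over the 10 genes and 0.02 over all genes tested.

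The sequence before the gene start is shown for the pair of genes with the firmest rise, Foxo1 and Creb3l3, and for the adaptor pair Irs1 and Irs2, which did not pass. Each line gives the 250 bases upstream of the RefSeq start (build GRCm38.p6), written 5′ to 3′ along the gene. Capitals mark any match, on either strand, to the letters TGACGTCA (the cyclic AMP response element), TGACG (its core, contained in the full element), TGTTTAC (a FOXO site), CAAAACA (an insulin response sequence) or AACAAT (a SOX site).
Foxo1 (chr3:52268087-52268336, plus strand): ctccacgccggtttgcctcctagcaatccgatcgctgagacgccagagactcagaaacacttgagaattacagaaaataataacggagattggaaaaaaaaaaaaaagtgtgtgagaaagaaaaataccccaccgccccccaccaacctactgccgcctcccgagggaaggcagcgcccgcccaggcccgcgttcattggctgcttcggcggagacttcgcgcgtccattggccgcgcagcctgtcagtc
Creb3l3 (chr10:81098873-81099122, minus strand): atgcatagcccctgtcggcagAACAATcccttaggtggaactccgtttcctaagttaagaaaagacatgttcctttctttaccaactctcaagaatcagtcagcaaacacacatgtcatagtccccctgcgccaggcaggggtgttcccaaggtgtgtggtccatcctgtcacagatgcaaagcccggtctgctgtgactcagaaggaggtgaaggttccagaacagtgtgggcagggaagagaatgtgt
Irs1 (chr1:82291440-82291689, minus strand): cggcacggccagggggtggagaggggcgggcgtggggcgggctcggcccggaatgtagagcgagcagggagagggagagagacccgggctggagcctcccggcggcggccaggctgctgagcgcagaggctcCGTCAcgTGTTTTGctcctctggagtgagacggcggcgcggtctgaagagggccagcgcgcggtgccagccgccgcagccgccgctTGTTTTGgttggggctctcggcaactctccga
Irs2 (chr8:11008930-11009179, minus strand): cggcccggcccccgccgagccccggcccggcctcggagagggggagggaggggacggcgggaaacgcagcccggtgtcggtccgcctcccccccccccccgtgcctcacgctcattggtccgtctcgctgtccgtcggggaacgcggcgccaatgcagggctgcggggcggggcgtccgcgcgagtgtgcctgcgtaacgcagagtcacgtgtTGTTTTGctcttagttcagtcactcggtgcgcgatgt

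Irs1 carried TGTTTTG, the reverse complement of CAAAACA, at 2 places and Irs2 at 1. No other promoter of the 8 genes found in the RefSeq promoter table held CAAAACA on either strand, against 5.56% of all 32851 promoters. Irs1 also held CGTCA, the core on the other strand, as did Foxo3, while Akt2 held TGACG on the coding strand. That made 3 of 8 with the core on either strand, against 17.8% of all promoters. Creb3l3 held AACAAT at position -229 from its start, as the 1 match of 8, against 9.42%. Neither TGACGTCA (1.55% of all promoters) nor TGTTTAC (3.17%) was found in any of the 8. The RefSeq start of Irs2 lies 471 bases upstream of the start in the deposited table, and those of the other 3 lie within 23 bases of it. GC content of the 4 windows was 56.0% for Foxo1, 50.8% for Creb3l3, 72.4% for Irs1 and 72.8% for Irs2. A match is a description of these letters and says nothing of binding.

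Across all genes the libraries held 16659778 to 21168233 counts, and the 10 genes had 59 to 8154 counts per library. HKO 2 stood apart from the other libraries on the second principal component, which carried 18.8% of the variance, and its mitochondrial genes took 25.9% of the counts against 12.1% to 16.3% elsewhere. Sox9 itself was called lower in HKO, with a log2 fold change of -1.05 (SE 0.27, edgeR adjusted p = 0.0284). This call was lost without HKO 2, HKO 3, WT 2 or WT 3 (adjusted p from 0.0503 to 0.0975). It was also lost with the replicate number as a block (edgeR adjusted p = 0.0652). Hepatocyte marker genes summed to 87146 to 91442 CPM in HKO and 104020 to 132165 CPM in WT. Of the 9 tested 1 was called higher, 2 lower and 6 neither, with a median log2 fold change of -0.09. CPM are counts scaled to library size with TMM factors. Marker genes of other liver cells were detected as well. Of 10 endothelial markers 1 was called higher in HKO and the summed level was 185 to 572 CPM in HKO and 119 to 175 CPM in WT, highest in HKO 2. Of 9 tested stellate cell markers 4 were called higher, with 153 to 541 CPM against 95.6 to 139 CPM, again highest in HKO 2. All 10 Kupffer cell and macrophage markers were called higher, with 245 to 380 CPM against 167 to 177 CPM. Of 10 biliary markers, which include Sox9, 4 were tested and 2 called lower, with 34.9 to 62.6 CPM against 66.9 to 173 CPM. Sox9 is among those 2, so that call repeats the one given above. Of 10 lymphocyte markers 3 were tested and 2 called higher, with 24.7 to 29.0 CPM against 3.50 to 6.04 CPM. Over the tested markers the median log2 fold change was 1.16 (endothelial), 1.19 (stellate), 0.96 (Kupffer cell and macrophage), -0.60 (biliary) and 3.59 (lymphocyte). In such bulk RNA, fewer cells of a type and less RNA per cell cannot be told apart. When HKO 2 was left out, the same 6 genes were called higher (edgeR adjusted p from 0.00194 to 0.0413). HKO 1 and HKO 3 also lay above every WT library in the endothelial sum (185 and 222 CPM) and the stellate sum (153 and 164 CPM). Leaving out HKO 2 therefore cannot separate RNA of these cells from the group difference. The part of endothelial, stellate cell, macrophage and lymphocyte RNA in the differences of the 6 genes was not tested.

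Levels between genes were compared per length, as the deposited FPKM (counts scaled to gene length and library total). Creb3l3 was the most abundant of the 10 in both groups, with a mean of 62.1 ± 1.36 FPKM in WT and 97.7 ± 11.7 FPKM in HKO (SD, n = 3). Gcgr followed with 22.3 ± 2.26 and 29.9 ± 5.37 FPKM, and Insr with 8.94 ± 1.06 and 10.9 ± 1.94 FPKM. These 3 genes did not overlap with their neighbours in the order in either group. In WT, Pik3r1 (3.92 ± 0.483), Akt2 (3.50 ± 0.314) and Foxo1 (3.48 ± 0.454 FPKM) each overlapped with the next of them. Crtc2, Foxo3, Irs1 and Irs2 lay lower still, between 1.99 and 2.33 FPKM on average in WT, and each overlapped with the next. In HKO, Foxo1 came next after Insr at 7.15 ± 1.04 FPKM, ahead of Pik3r1 at 6.20 ± 1.39 FPKM, with which it overlapped, and above every library of Akt2 at 3.58 ± 0.262 FPKM. Irs1 and Irs2 remained the lowest pair on average, at 2.04 ± 0.357 and 2.13 ± 0.799 FPKM, and overlapped with each other. Irs2 also overlapped with Crtc2, with 2.80 FPKM in the highest HKO library of Irs2 and 2.77 FPKM in the lowest of Crtc2.

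**Figure D1:**
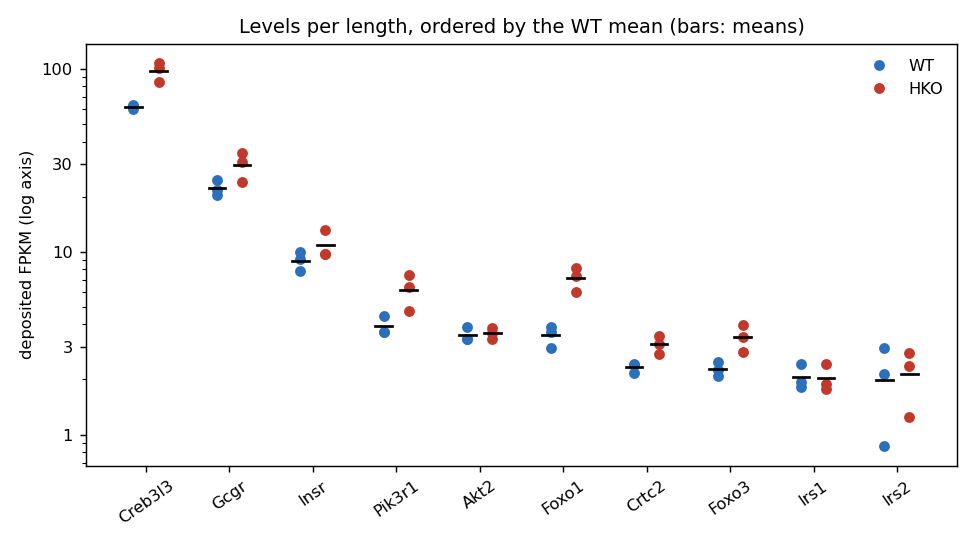
Deposited FPKM of each gene (log axis) in the 3 WT and 3 HKO libraries, ordered by the WT mean, with points for libraries and bars for means. Creb3l3, Gcgr and Insr lie above the other genes in both groups, and Foxo1 stands level with Akt2 in WT and above it in HKO.

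Positions below are those of the whole gene on GRCm38, and all 10 genes are annotated as protein-coding. Among the receptors, Insr (ENSMUSG00000005534, chr8:3150922-3279617, minus strand) encodes the insulin receptor, a tyrosine kinase at the cell surface. HKO 1, 2 and 3 held 99.6, 109 and 133 CPM of it, and WT 1, 2 and 3 held 77.4, 108 and 97.0 CPM. The groups overlapped, since HKO 1 lay below WT 2. The log2 fold change was 0.27 with a 95% interval of -0.08 to 0.63 (SE 0.15, edgeR adjusted p = 0.230), so a rise of up to 1.55-fold or a fall to 0.944 of WT lay within the interval. The value was 0.15 without HKO 3 and 0.14 without WT 1. Gcgr (ENSMUSG00000025127, chr11:120530699-120538986, plus strand) encodes the glucagon receptor, which couples to the stimulatory G protein. In the same order of libraries it stood at 173, 132 and 153 CPM (HKO) and at 120, 116 and 106 CPM (WT). All HKO values lay above all WT values, and the log2 fold change was 0.42 (SE 0.12, edgeR adjusted p = 0.0382). This call was lost without HKO 1, HKO 3, WT 1, WT 2 or WT 3 (adjusted p = 0.103, 0.0971, 0.0694, 0.0977 and 0.150) and was kept without HKO 2 (adjusted p = 0.0136).

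The adaptors Irs1 (ENSMUSG00000055980, chr1:82233101-82291416, minus strand) and Irs2 (ENSMUSG00000038894, chr8:10986980-11008458, minus strand) are the docking proteins that carry the signal of the insulin receptor to phosphoinositide kinase. Irs1 stood at 15.8, 18.6 and 21.6 CPM (HKO) and at 21.0, 17.4 and 18.1 CPM (WT). The WT values lay inside the HKO range, and the log2 fold change was -0.02 with a 95% interval of -0.35 to 0.32 (SE 0.14, edgeR adjusted p = 0.950). The HKO libraries held 4.89, 12.0 and 9.16 CPM of Irs2 and the WT libraries 3.28, 12.4 and 8.79 CPM, from 59 to 221 counts. The lowest library of each group carried the number 1, though the labels do not say that a number marks anything shared. Spread within a group was far larger for Irs2 than for the other 9 genes, with a coefficient of variation of 41.4% in HKO and 56.4% in WT. The median over all genes tested was 13.3% in HKO and 11.8% in WT, and the 90th percentile was 47.6% and 35.2%. For Irs2 the log2 fold change was 0.09 with a 95% interval of -1.01 to 1.19 (SE 0.48, edgeR adjusted p = 0.907), which spans 0.497-fold to 2.28-fold. With 1 library left out it ran from -0.30 (without WT 1) to 0.53 (without WT 2), and it was -0.21 without HKO 2. Exons of Irs1 and Irs2 overlap Gm9747 and 9530052E02Rik on the opposite strand, which had at most 1 count in any library.

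In the kinase step, Pik3r1 (ENSMUSG00000041417, chr13:101680563-101768217, minus strand) encodes a regulatory subunit of phosphoinositide kinase that binds the phosphorylated adaptors. It stood at 82.5, 67.2 and 96.1 CPM (HKO) and at 56.3, 50.3 and 49.2 CPM (WT). All HKO libraries lay above all WT libraries, and HKO 2 was the closest to them. Its log2 fold change was 0.66 (SE 0.14, edgeR adjusted p = 0.0140), with the call lost when WT 2 (adjusted p = 0.0541) or WT 3 (0.0686) was left out. Akt2 (ENSMUSG00000004056, chr7:27591552-27640826, plus strand) encodes the AKT kinase that serves metabolic insulin action in liver. The HKO libraries held 47.5, 45.0 and 43.9 CPM and the WT libraries 39.7, 51.0 and 43.0 CPM. The HKO values lay inside the WT range, with a log2 fold change of 0.03 and a 95% interval of -0.24 to 0.29 (SE 0.11, edgeR adjusted p = 0.881), or 0.848-fold to 1.23-fold.

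**Figure D2:**
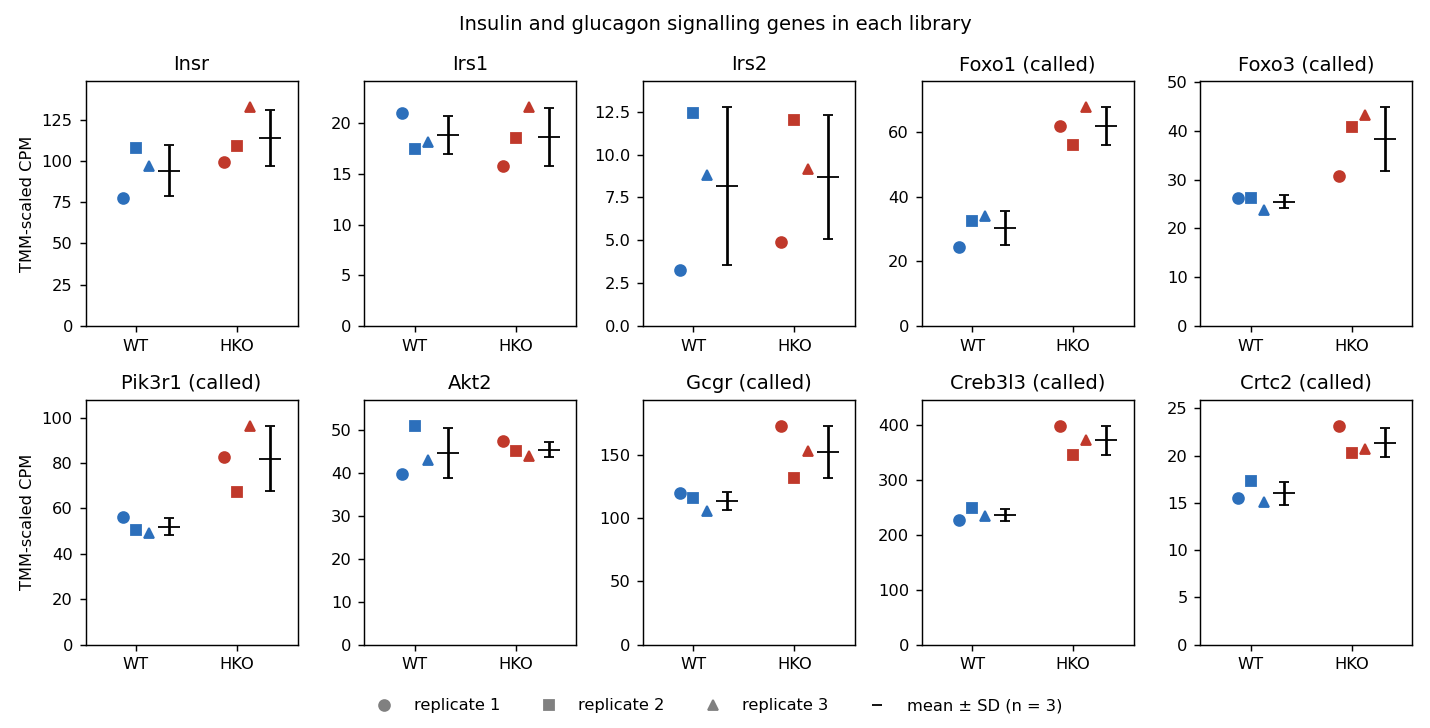
TMM-scaled CPM of the 10 genes in each library, with a symbol for each replicate number and the mean ± SD beside each group (n = 3). The groups do not overlap in the 6 called genes, overlap in Insr, Irs1, Irs2 and Akt2, and Irs2 varies within each group from 3.28 to 12.4 CPM.

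The transcription factors at the end of the insulin branch were higher. Foxo1 (ENSMUSG00000044167, chr3:52268336-52353221, plus strand) encodes the FOXO factor best known for turning on gluconeogenic genes in fasted liver. The HKO libraries held 61.8, 55.9 and 67.7 CPM and the WT libraries 24.4, 32.6 and 33.9 CPM, or 61.8 ± 5.86 against 30.3 ± 5.16 CPM (SD, n = 3). The lowest HKO library lay well above the highest WT library, and the log2 fold change was 1.03 (SE 0.15, edgeR adjusted p = 0.00289). Its exons overlap the antisense gene Gm20402, which had at most 1 count in any library. Foxo3 (ENSMUSG00000048756, chr10:42181841-42276755, minus strand), a related factor, stood at 30.8, 40.7 and 43.2 CPM (HKO) and at 26.3, 26.2 and 23.9 CPM (WT). The groups did not overlap, with HKO 1 closest to WT. Its log2 fold change was 0.59 (SE 0.14, edgeR adjusted p = 0.0222). It was no longer called without HKO 3, WT 2 or WT 3 (adjusted p = 0.0647, 0.0623 and 0.0914).

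On the glucagon and fasting branch, Creb3l3 (ENSMUSG00000035041, chr10:81084324-81098874, minus strand) encodes a liver-enriched factor that is held in the endoplasmic reticulum membrane and, once cleaved, turns on lipid and fasting genes. It stood at 398, 344 and 372 CPM (HKO) and at 227, 248 and 234 CPM (WT). The spread within groups was small (coefficient of variation 7.19% in HKO and 4.62% in WT) and the groups lay far apart. Here the log2 fold change was 0.65 (SE 0.10, edgeR adjusted p = 0.00366). Crtc2 (ENSMUSG00000027936, chr3:90254163-90264125, plus strand) encodes the coactivator that enters the nucleus on glucagon signalling and joins CREB. The HKO libraries held 23.2, 20.3 and 20.6 CPM and the WT libraries 15.5, 17.4 and 15.1 CPM. Every HKO library again lay above every WT library, with a log2 fold change of 0.42 (SE 0.11, edgeR adjusted p = 0.0333). The call was lost without HKO 1, HKO 3, WT 1, WT 2 or WT 3 (adjusted p = 0.0890, 0.0696, 0.0999, 0.0574 and 0.125) and with DESeq2 (adjusted p = 0.0550).

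**Figure D3:**
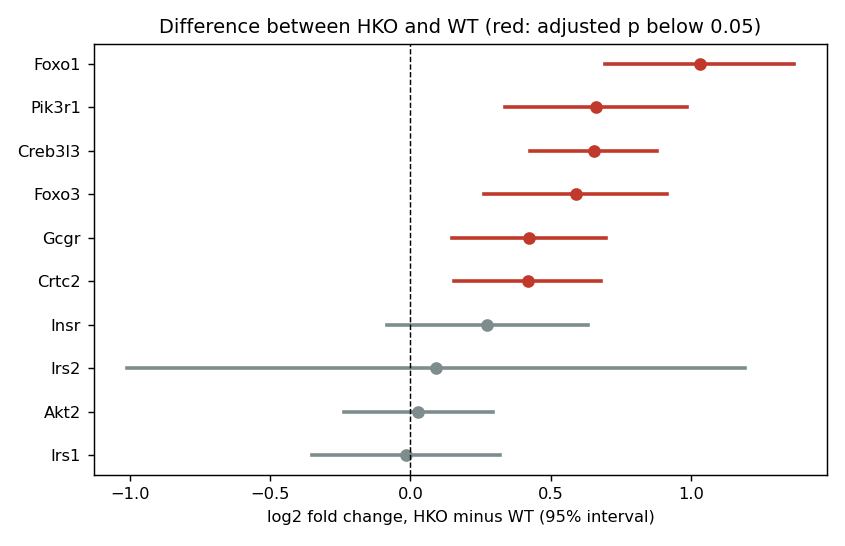
Log2 fold change of HKO minus WT for each gene with its 95% interval, red where the adjusted p was below 0.05. The 6 red genes range from 0.42 (Crtc2) to 1.03 (Foxo1), and the interval of Irs2, from -1.01 to 1.19, is the widest.

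Values of HKO and WT did not overlap in 6 of the 10 genes, all higher in HKO, where 44.2% of all tested genes had groups that did not overlap, 22.6% with HKO above WT and 21.6% the reverse. Relative to the WT mean on the log2 scale, HKO 1, HKO 2 and HKO 3 had medians of 0.41, 0.36 and 0.47 over the 10 genes. HKO 3 held the highest HKO value in 5 of the 10 genes and HKO 2 the lowest in 5. Foxo1 and Creb3l3 were called under all 13 alternatives run, with adjusted p of at most 0.0147 and 0.0309. With WT 2 or with WT 3 left out, these were the only genes of the 10 still called, 2 in each case, and 3 were called without HKO 3.

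**Figure D4:**
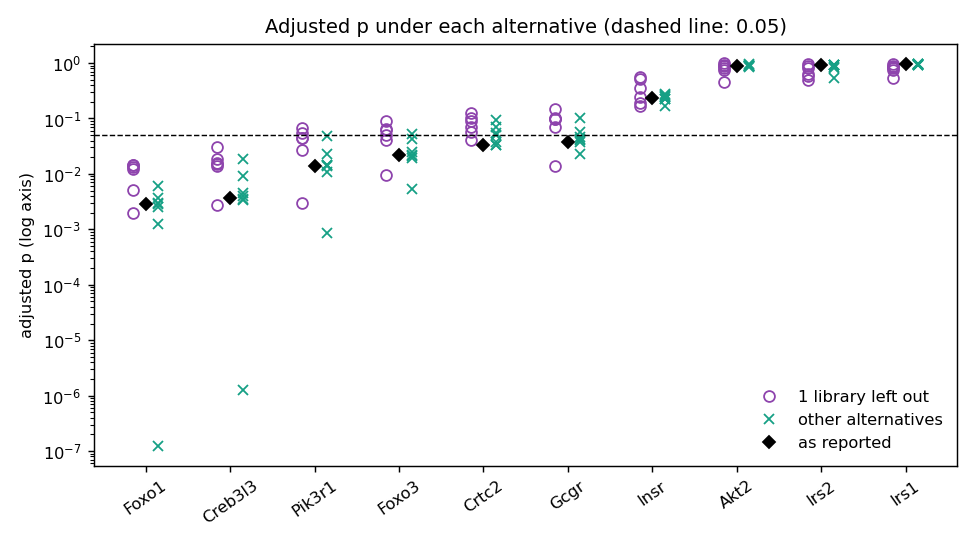
Adjusted p of each gene (log axis) as reported and under 13 alternatives, 6 of which leave out 1 library. Foxo1 and Creb3l3 stay below 0.05 throughout, Pik3r1, Foxo3, Crtc2 and Gcgr cross it, and the other 4 genes lie above it in every alternative.

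Ratios within a library do not depend on how libraries are scaled, and 3 were compared between the groups. The log2 ratio of Foxo1 to Foxo3 in FPKM was 1.38, 0.83 and 1.02 in HKO and 0.26, 0.69 and 0.88 in WT. HKO 2 lay below WT 3, so the groups overlapped. The difference of 0.47 had a two-sided exact permutation p of 0.2 (0.6 adjusted over the 3 ratios), where 0.1 is the smallest this design allows. Irs2 to Irs1 had log2 ratios of -0.51, 0.56 and -0.05 in HKO and -1.50, 0.70 and 0.14 in WT, so which of the adaptor transcripts was more abundant changed from library to library in both groups (difference 0.22, exact permutation p = 0.9). Insr to Gcgr had -1.83, -1.30 and -1.24 in HKO and -1.66, -1.13 and -1.16 in WT, with Gcgr above Insr in all 6 libraries (difference -0.14, exact permutation p = 0.5).

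By profile over the 6 libraries, the genes nearest to Foxo1 were Pex11a, Ddhd2 and Cobl, with root mean square differences of 0.046, 0.052 and 0.074 in log2 CPM centred on each gene. These 3 had log2 fold changes of 1.02, 0.98 and 0.95. Pex11a encodes a protein of peroxisome division. Those nearest to Pik3r1, the member with the next largest fold change, were 9130019O22Rik, Rapgef4 and Tnk2, with differences of 0.061, 0.062 and 0.064. Of these, 9130019O22Rik did not pass (edgeR adjusted p = 0.0932). Tnk2 was called (edgeR adjusted p = 0.0169), but not without HKO 1, HKO 3, WT 2 or WT 3 (adjusted p from 0.0558 to 0.0661). Rapgef4, which encodes a guanine nucleotide exchange factor bound by cyclic AMP, had a log2 fold change of 0.66 (SE 0.12, edgeR adjusted p = 0.00726). Closeness over 6 libraries reflects mainly the difference between the groups. Exons of Ddhd2, Rapgef4 and Tnk2 overlap noncoding genes on the opposite strand.

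Of 54 other listed genes of the insulin pathway 49 were tested, of which 7 rose and 3 fell. The share called was 20.4%, near the 23.2% of all genes tested, and the median log2 fold change was 0.07 against 0.02 over all genes. Inpp5k, a lipid phosphatase that dampens insulin signalling, rose from 4.37 ± 0.222 to 7.74 ± 0.556 CPM (log2 fold change 0.82, edgeR adjusted p = 0.00882). Sh2b3, an adaptor that restrains cytokine receptors, rose too (0.84 on the log2 scale), and its exons overlap Atxn2 on the opposite strand. Deptor, an inhibitor of the mTOR kinase, and Gab1, a docking protein, rose with 0.86 and 0.69. The call of Deptor was lost without HKO 1, HKO 3, WT 1 or WT 3 (adjusted p from 0.0522 to 0.111), and that of Gab1 without HKO 1, HKO 2, WT 1, WT 2 or WT 3 (adjusted p from 0.0505 to 0.109). Exons of Deptor and Gab1 overlap the noncoding genes Gm9920 and Gm31105 on the opposite strand. Pik3r3, another regulatory subunit of the kinase, fell from 4.81 ± 0.768 to 2.39 ± 0.459 CPM (edgeR adjusted p = 0.0204). Pik3r3 and Pik3r1 thus had called differences of opposite sign, though Pik3r3 was not called without HKO 1 or WT 2 (adjusted p = 0.0601 and 0.0757), and its exons overlap Gm49337 on the same strand. Socs3, a feedback inhibitor of cytokine and insulin receptors, fell with -0.77 and Mlst8, an mTOR subunit, with -0.48. The call of Socs3 was lost without HKO 1, HKO 3, WT 2 or WT 3 (adjusted p from 0.0827 to 0.106), and that of Mlst8, whose exons overlap Bricd5, without any 1 library (adjusted p from 0.0576 to 0.0788) and with DESeq2 (0.0511). Among the list 3 rose without HKO 1, HKO 3 or WT 1, 4 without WT 2 and 2 without WT 3. No gene of it fell without HKO 1 or WT 2, and 1 fell without HKO 3 or WT 3.

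In the glucagon and cyclic AMP pathway 52 of 67 listed genes were tested, of which 8 rose and 2 fell. The share called, 19.2%, was again near the 23.2% of all genes, and the median log2 fold change was 0.24 over the 52. Sik1, a kinase induced by cyclic AMP that phosphorylates CRTC2 and keeps it out of the nucleus, rose from 21.5 ± 0.994 to 44.7 ± 7.30 CPM (log2 fold change 1.06, edgeR adjusted p = 0.00197). Akap13, an anchoring protein of protein kinase A, rose with 0.95, and its call was lost without WT 3 (adjusted p = 0.0589). Adcy4, an adenylyl cyclase, rose with 1.40, with HKO 2 as the library that raised it most (0.94 without HKO 2), and its call was lost without any 1 library (adjusted p from 0.0509 to 0.132). Pde7a, a phosphodiesterase that breaks down cyclic AMP, and Creb3l2, a factor of the same family as Creb3l3, fell with -0.75 and -0.63, and the calls of both were lost without HKO 3, WT 2 or WT 3 (adjusted p from 0.0517 to 0.0811). Exons of Pde7a overlap the antisense gene Gm16093. Without WT 3, 3 genes of the list rose, and none fell without HKO 3, WT 2 or WT 3.

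Pathway membership given in the deposited table itself was counted too, after values had been seen. Over all genes tested 12.1% were called higher and 11.2% lower. Of 114 tested genes that the table places in KEGG insulin signalling, 26 rose and 6 fell (median log2 fold change 0.14), and 24 and 6 of 108 with the members left out. The share called was 28.1% of the 114, against 23.2% of all genes. The risers numbered 15 without HKO 3 and 10 without WT 3, and the fallers 0 without HKO 1, 3 without HKO 3, 1 without WT 2 and 2 without WT 3. Of 79 in KEGG glucagon signalling, 18 rose and 7 fell (median 0.24), and 14 and 7 of 74 with the members left out. The share called was 31.6% of the 79. There the fallers numbered 2 without HKO 1, 3 without HKO 3, 3 without WT 1, 0 without WT 2 and 2 without WT 3.

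**Figure D5:**
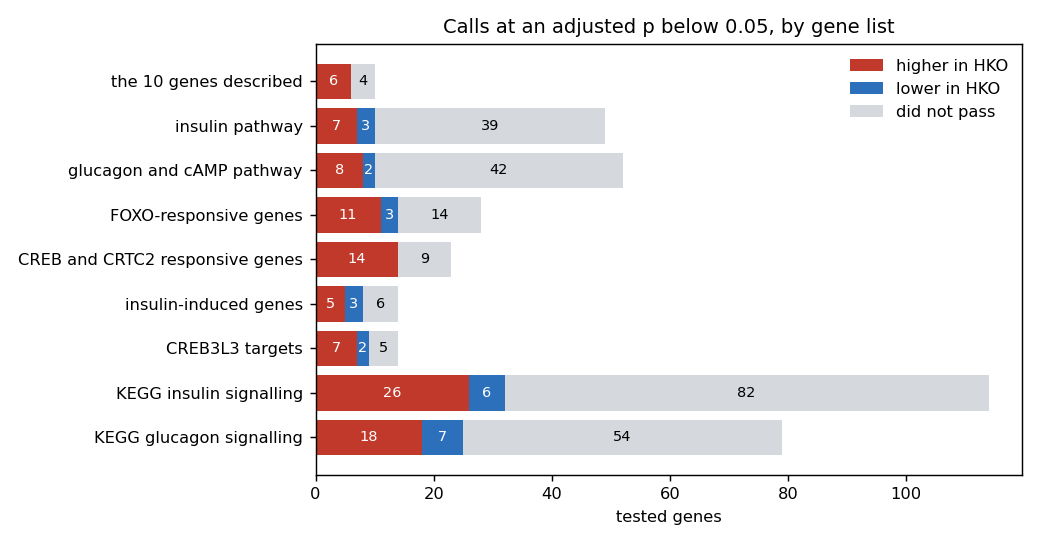
Number of tested genes in each list that were higher in HKO, lower in HKO or did not pass at an adjusted p below 0.05. In the insulin pathway list 39 of 49 genes did not pass and in the glucagon and cyclic AMP list 42 of 52, near the share over all genes, of which 23.2% were called. Of 23 CREB and CRTC2 responsive genes 14 were higher and none lower.

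Genes known to respond to FOXO factors, to CREB with CRTC2, to CREB3L3 or to insulin were counted as 4 lists that share some genes, such as Pck1 and G6pc. The lists were chosen with earlier results of these data known. Over all genes tested 12.1% were called higher and 11.2% lower. Of 28 FOXO-responsive genes tested 11 rose and 3 fell, and the median log2 fold change was 0.51. The share called was 50% of the 28, against 23.2% of all genes. Pck1, the enzyme that commits oxaloacetate to gluconeogenesis, rose from 1133 ± 461 to 4556 ± 487 CPM (log2 fold change 2.01, edgeR adjusted p = 0.00378). Igfbp1, a secreted binding protein whose gene insulin represses, rose from 77.5 ± 35.8 to 279 ± 78.8 CPM (1.85, adjusted p = 0.0115). Pnpla2, the lipase that opens triglyceride breakdown, and Nampt, an enzyme of nicotinamide recycling, rose with 1.53 and 1.31. Cited2, Cdkn1b and Apoc3 fell with -0.62, -0.55 and -0.47, and each call was lost without at least 4 of the 6 libraries in turn (adjusted p from 0.0502 to 0.136). These 3 encode a transcriptional coregulator, a cyclin-dependent kinase inhibitor and an apolipoprotein. The risers numbered 7 without HKO 3 and 6 without WT 3, and no gene fell without HKO 1, HKO 3, WT 2 or WT 3.

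Of 23 tested genes that respond to CREB and CRTC2, 14 rose and none fell, and the median log2 fold change was 0.97. Besides Pck1, these were led by the clock repressor gene Per1, the nuclear receptor gene Nr4a1 and Got1, which encodes cytosolic aspartate aminotransferase, with log2 fold changes of 2.62, 2.34 and 1.96. Without WT 3, 9 rose, and 1 gene fell without HKO 2 or without WT 1. By DESeq2 none fell either, also with 14 higher.

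Among 14 tested CREB3L3 targets 7 rose and 2 fell, and the median log2 fold change was 0.62. The share called was 64.3%, against 23.2% of all tested genes. Fgf21, which encodes a fasting hormone, went from 0.591 ± 0.0946 CPM in WT to 4.76 ± 1.34 CPM in HKO (log2 fold change 2.99, edgeR adjusted p = 0.000967). The lipid droplet gene Cidec, the apolipoprotein gene Apoa4 and Cpt1a, which admits fatty acids to mitochondria, rose with 4.32, 1.79 and 1.28. The call of Apoa4 was lost without WT 3 (adjusted p = 0.0506), and its exons overlap Gm47528 and Gm10680 on the opposite strand. The 2 that fell were Hamp, the iron hormone hepcidin, with -1.92 and the pentraxin gene Apcs with -1.37. Both are also genes of the acute phase. Which regulator lay behind the risers or the fallers was not tested. Hamp has a near-identical neighbour, Hamp2, and its call was lost without HKO 1, HKO 3, WT 2 or WT 3 (adjusted p from 0.0635 to 0.0806). Without WT 3, 4 targets rose, and 1 fell without HKO 1, HKO 3, WT 2 or WT 3.

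Insulin-induced genes of sugar and fat handling went both ways, with 5 of 14 higher, 3 lower and 6 that did not pass (median 0.22). The share called was 57.1%, against 23.2% of all tested genes. Thrsp, a lipogenic regulator, Pklr, the liver pyruvate kinase, and Acacb, an acetyl-CoA carboxylase, rose with log2 fold changes of 1.34, 0.88 and 0.87 (edgeR adjusted p = 0.00673, 0.0350 and 0.00287). The call of Pklr was lost without HKO 1, HKO 3, WT 1 or WT 3 (adjusted p from 0.0531 to 0.101), and its exons overlap Hcn3 on the opposite strand. Insig1, a sterol sensor, the desaturase gene Scd1 and the citrate lyase gene Acly fell with -1.79, -1.08 and -0.44. The call of Scd1 was lost without HKO 1 (adjusted p = 0.0540) and that of Acly without HKO 1, HKO 2, WT 2 or WT 3 (adjusted p from 0.0732 to 0.110). Without HKO 1, 1 gene of the list fell. The state of feeding and the hour of collection are not given in the sources used here.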

How the data were processed

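RNA-seq was measured in 6 mouse liver libraries, 3 HKO and 3 WT. HISAT2 2.0.4, StringTie 1.3.0, mm10 and GRCm38.p4 are named, per the submitters' processing notes, without their roles. The authors deposited 1 table of raw read counts and FPKM values per gene, per the file headers; the FPKM equal counts over column total and 1 gene length (spread at most 0.0019% over 9308 genes that had 50 or more counts everywhere). No source used here says whether counting used strand.

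The counts were tested with edgeR 4.0.16 (R 4.3.3): filterByExpr, TMM, quasi-likelihood F-test of HKO against WT without a block, Benjamini-Hochberg adjustment over 12556 genes, threshold 0.05. The script was tested on simulated data. SE is the absolute log2 fold change over the square root of F, and CPM are means ± SD of TMM-scaled values. Levels between genes use FPKM. Alternatives were RLE scaling, TMM without mitochondrial genes, no filter, DESeq2 1.42.0, limma-voom and limma 3.58.1 on log2(FPKM + 1), a replicate block and each library left out. Members, gene lists and tests were chosen with earlier results of these data known. Besides the members and Sox9, named genes are the called genes with the largest fold change in each list, up to 4 per direction, and the 3 nearest profiles of 2 members. Some genes that this rule names are not reported here. All listed symbols were matched except 1 hepatocyte marker. Exon overlaps come from GENCODE M21 (GRCm38), where 8 of the 10 members have the coordinates of the table. Promoter sequences are RefSeq's.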

Additional observations from a re-analysis of the deposited data

How the results depend on the processing

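The count of members called higher, 6, was 6 with RLE scaling, without mitochondrial genes, without a filter and with limma-voom, 5 with DESeq2 and 4 with a replicate block. It was 3 with limma on log2(FPKM + 1), which keeps Foxo1, Creb3l3 and Pik3r1, and 2 to 6 with 1 library left out. No member was called lower in any alternative. Deviations of same-numbered libraries had correlations of -0.00192, 0.00248 and 0.0717, and those of libraries with unlike numbers ran from -0.0764 to 0.0556. With 3 libraries a group these values cannot settle whether a number marks anything shared. Under the block 1245 genes rose and 1115 fell over all genes, and 4 insulin pathway genes rose. The members Gcgr and Crtc2 lost their calls (edgeR adjusted p = 0.0579 and 0.0700), and so did Sox9 (0.0652). With log2(FPKM + 1) 4 insulin pathway genes rose and 4 KEGG glucagon genes fell, and without a filter 5 insulin-induced genes fell.

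With 1 library left out the counts over all genes ran from 722 to 1589 higher and 682 to 1546 lower. The insulin pathway had 2 to 6 higher and 0 to 2 lower, the glucagon and cyclic AMP pathway 3 to 8 and 0 to 2, FOXO-responsive genes 6 to 12 and 0 to 2, CREB and CRTC2 responsive genes 9 to 14 and 0 to 1, CREB3L3 targets 4 to 8 and 1 to 2, insulin-induced genes 4 to 6 and 1 to 4, KEGG insulin signalling 10 to 26 and 0 to 7, and KEGG glucagon signalling 12 to 20 and 0 to 8.

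Directions turned only for values that had not passed. With 1 library left out, the log2 fold change of Irs1 ran from -0.14 to 0.074, that of Irs2 from -0.30 to 0.53 and that of Akt2 from -0.060 to 0.13. Irs1 turned without HKO 1 or WT 1, Irs2 without HKO 2 or WT 1, and Akt2 without HKO 1 or WT 1. The log2 ratio of Irs2 to Irs1 ran from -0.42 to 0.68 with 1 library left out (-0.059 without HKO 2 and -0.42 without WT 1), that of Insr to Gcgr from -0.31 to 0.048 (the latter without HKO 1), and that of Foxo1 to Foxo3 from 0.29 to 0.60. Over members and alternatives, 103 of 130 values kept direction and side of the threshold, 21 lost the call and 6 turned; the cause was not tested. The 95% interval of Irs2, with 59 to 221 counts a library, ran from -1.01 to 1.19, so differences within it could not be told from 0.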
